A study of Mus musculus with 36 samples.

Results

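The genes described here are the 2 receptors that bind glucocorticoid hormone in the brain, the enzyme that regenerates the hormone inside cells, and 4 genes that hormone-bound receptor is known to switch on. They were taken by symbol from the deposited gene table: Nr3c1, Nr3c2, Hsd11b1, Fkbp5, Sgk1, Tsc22d3 and Zbtb16, which is 7 of 19025 genes. All 7 passed the filter on low counts in every comparison, and the lowest estimated count of any of them in any library was 97. RNA was sequenced from brain tissue of C57 mice aged 6 to 7 weeks, with no treatment named in the labels. Tissue came from regions labelled HP, PFc, Nac, STR, SN and VTA, which the labels do not spell out. Each region had 3 libraries from wild-type mice (WT) and 3 from knock-in mice (KI), 36 in all. The title describes the KI as a synonymous base change in Maoa, the gene of monoamine oxidase A, that lowers its transcription and translation. Nothing in the labels ties each library of a group to its own animal. Each p-value therefore measures the spread between libraries, and that spread may be technical.

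Corticosterone, the main glucocorticoid of mice, enters the brain and binds 2 related nuclear receptors. The mineralocorticoid receptor has the higher affinity and is known for its high level in hippocampal neurons, while the glucocorticoid receptor is found in most brain cells and is occupied mainly under stress or at the daily hormone peak. Both receptors sit in a complex with heat shock proteins until hormone binds, then move to the nucleus and bind DNA at short palindromic elements, where they raise a shared set of target genes.

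The libraries held 15145623 to 18863508 estimated counts each, and WT libraries were the deeper ones on average. Maoa ran from 34.0 to 78.0 CPM (read counts scaled to a common library total) in WT and from 37.7 to 97.4 CPM in KI; its mean was higher in KI in 5 of 6 regions and no region passed edgeR's quasi-likelihood test (smallest adjusted p = 0.284). Marker lists for each region put 8 of the 36 libraries, 2 WT and 6 KI, below the midpoint between their labelled region and the rest on that region's own list: WT Nac 2, WT VTA 3, KI HP 2, KI Nac 1, KI Nac 2, KI STR 3, KI SN 1 and KI SN 2. KI PFc 1 kept its cortical markers and had striatal markers at a summed 2077 CPM, against 249 to 442 CPM in the other PFc libraries. KI PFc 1 was added to the 8 by a separate rule, as the KI PFc library with the highest score on the striatal list. Figures and fits within a region count it as against its label, while fits over several regions leave out the 8 and keep KI PFc 1. In the main fits every library was kept under its label. Within a region, most KI and WT differences of named genes that rest on these 9 libraries are also given without them. That leaves 1 KI library in each of Nac and SN, assumed to vary like the WT libraries.

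The 7 genes differed widely in level. Over the 36 libraries the median in FPKM (fragments per kilobase of transcript, scaled to library depth, the authors' value) was 55.4 for Tsc22d3, 51.3 for Sgk1, 27.1 for Hsd11b1, 16.2 for Nr3c1, 10.1 for Fkbp5, 8.16 for Nr3c2 and 2.11 for Zbtb16. Between the WT regions, 5 of the 7 differed by the F test of edgeR's quasi-likelihood fit over 18 libraries, against 48 percent of all 15094 genes tested. Without WT Nac 2 and WT VTA 3 all 7 differed, against 70 percent of 15240 genes. Between KI and WT, edgeR called 0 of the 7 in any region, with adjusted p-values from 0.132 upwards. It called 0 percent of all genes in each region too, although 146 to 2562 genes per region had an unadjusted p under 0.05, among them 5 values of the 7 genes. DESeq2 called 2 of the 7, Sgk1 and Nr3c2 in SN, beside 6.26 percent of genes there. It called 0 of the 7 in HP (2.2 percent of genes), PFc (3.08 percent), STR (1.38 percent), VTA (1.25 percent) and Nac (0.0112 percent).

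**Figure D1:**
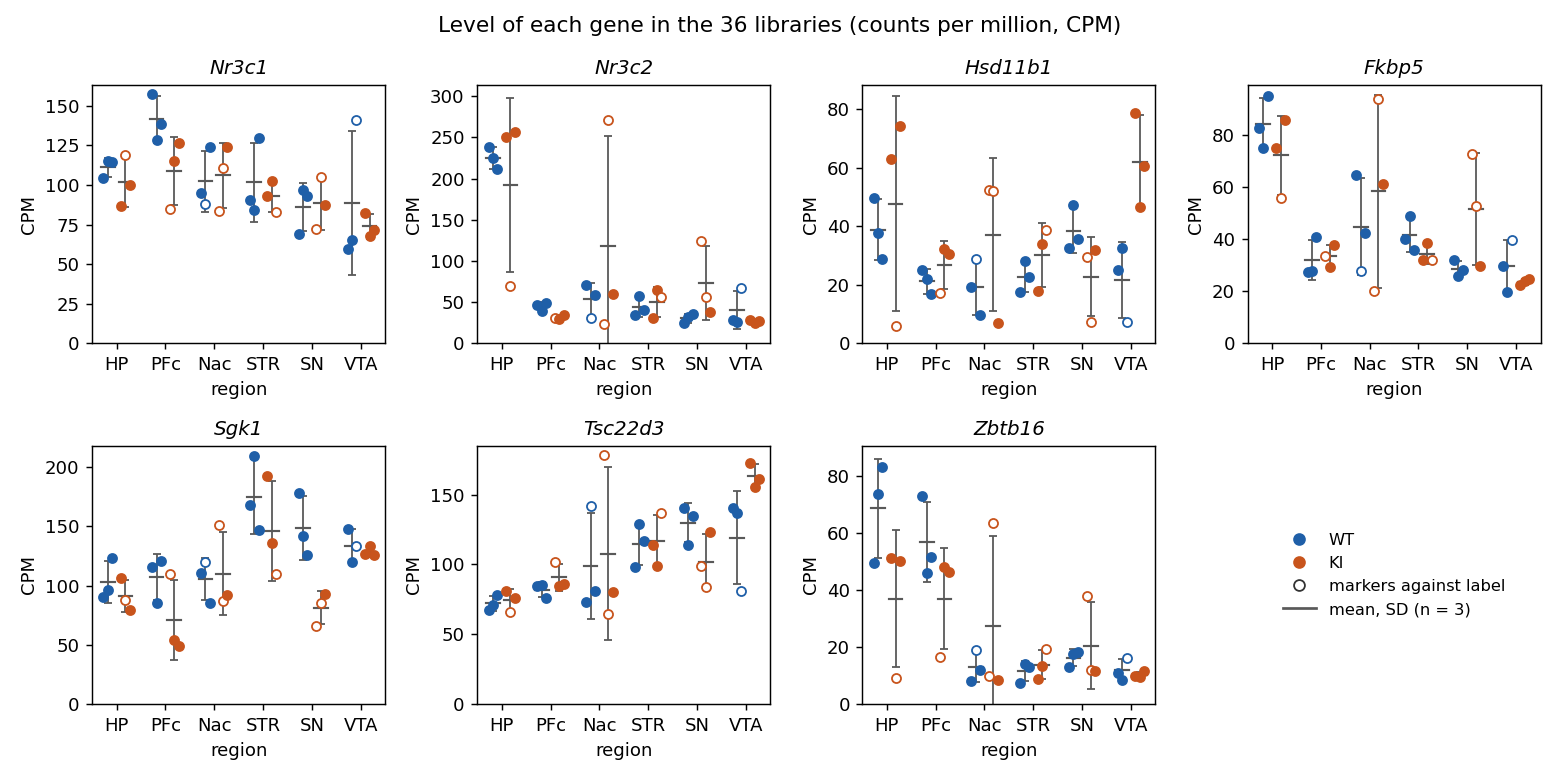
CPM of each of the 7 genes (y axes, from 0) in the 36 libraries, by region and genotype. Points are libraries, open where the markers of the library went against its label; lines are means and bars SDs of 3 libraries, cut at 0. Nr3c2 stands at 211 to 239 CPM in WT HP and at 24.9 to 70.5 CPM in the other WT libraries, and for this gene the open points of KI HP 2 (69.8 CPM), KI Nac 2 (271 CPM) and KI SN 1 (124 CPM) lie away from the other points of their groups.

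Nr3c2 encodes the mineralocorticoid receptor. It lies on chromosome 8, from 76898083 to 77245012 in GRCm38.p6. Its level in HP set that region apart. WT HP 1, 2 and 3 had 239, 225 and 211 CPM, and the other 15 WT libraries ran from 24.9 to 70.5 CPM, so the groups did not overlap. HP exceeded the mean of the other 5 regions by 2.40 on the log2 scale (SE 0.219), and SN lay below that mean by 1.04 (edgeR adjusted p = 0.0377). The HP difference passed in all 18 fits that left out 1 WT library, and the SN difference in 5 of them (edgeR adjusted p from 0.0107 to 0.242). The F test over regions gave an adjusted p of 3.06e-05. Of the 7 genes 3 were called higher in HP (Nr3c2, Fkbp5 and Zbtb16), as were 17.6 percent of all genes, and SN was called lower for 3.21 percent. Nac (53.4 ± 20.4 CPM), PFc (45.5 ± 5.02), STR (44.3 ± 12.4), VTA (40.8 ± 22.7) and SN (30.8 ± 5.51; mean ± SD, n = 3 each) followed in that order, each overlapping the next. Without WT VTA 3 the mean of WT VTA was 27.7 CPM, below WT SN.

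In KI, Nr3c2 was high in libraries with high hippocampal markers, whatever their label. KI HP 1, 2 and 3 had 250, 69.8 and 256 CPM, with the 8 hippocampal markers summing to 567, 42.0 and 839 CPM. KI Nac 1, 2 and 3 had 24.1, 271 and 60.3 CPM of Nr3c2 beside hippocampal markers at 49.8, 721 and 51.2 CPM. KI SN 1, 2 and 3 had 124, 56.2 and 38.7 CPM beside 386, 43.6 and 80.1 CPM. The 3 libraries KI HP 2, KI Nac 2 and KI SN 1 therefore stood apart from the others of their labels on both measures.

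Between KI and WT, Nr3c2 groups did not overlap in SN and PFc. In SN all 3 KI libraries lay above the WT libraries at 24.9, 31.8 and 35.8 CPM (log2 fold change 1.23, SE 0.412, edgeR adjusted p = 0.197; DESeq2 adjusted p = 0.0485). Without KI SN 1 and 2 the log2 fold change was 0.33 (adjusted p = 0.651). In PFc, WT had 47.0, 39.9 and 49.7 CPM, KI had 31.0, 30.3 and 34.9 CPM, and all KI libraries lay below all WT libraries. The log2 fold change in PFc was −0.49 (SE 0.128, unadjusted p = 0.00577, adjusted p = 0.208), and −0.47 without KI PFc 1 (adjusted p = 0.0666). In these bulk samples fewer cells of a type and less RNA per cell cannot be told apart.

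Nr3c1 encodes the glucocorticoid receptor and lies on chromosome 18, from 39410545 to 39519421. Over WT regions it ran from 86.2 ± 15.05 CPM in WT SN to 141 ± 14.8 CPM in WT PFc. WT PFc, at 157, 128 and 138 CPM, lay above WT HP, at 104, 115 and 114 CPM, and the remaining neighbours in the order HP, Nac, STR, VTA, SN overlapped. The F test over WT regions did not pass (adjusted p = 0.214). WT VTA 3, with striatal markers, had 141 CPM beside 59.8 and 65.2 CPM in WT VTA 1 and 2. Without it and WT Nac 2 the F test passed (adjusted p = 0.00208), with PFc 0.60 above and VTA 0.80 below the mean of the other regions on the log2 scale (adjusted p = 0.00218 and 0.00230). Between genotypes PFc alone had groups that did not overlap: KI had 84.9, 115 and 126 CPM, a log2 fold change of −0.36 (SE 0.170, edgeR adjusted p = 0.303), and −0.21 without KI PFc 1 (adjusted p = 0.276).

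The balance of the receptors can be read per length as the ratio of Nr3c2 to Nr3c1 FPKM. It was 2.32 ± 0.265 in WT HP, the region where the mineralocorticoid receptor gene exceeded the glucocorticoid receptor gene, and 0.370 ± 0.0358 in WT PFc (n = 3 each). The ratio lay between 0.343 and 0.849 in all 15 WT libraries outside HP. Among KI libraries it was 3.27 and 2.92 in KI HP 1 and 3 and 0.671 in KI HP 2. It was 2.80 in KI Nac 2 and 1.95 in KI SN 1, and 0.302 to 0.776 in the remaining KI libraries.

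**Figure D2:**
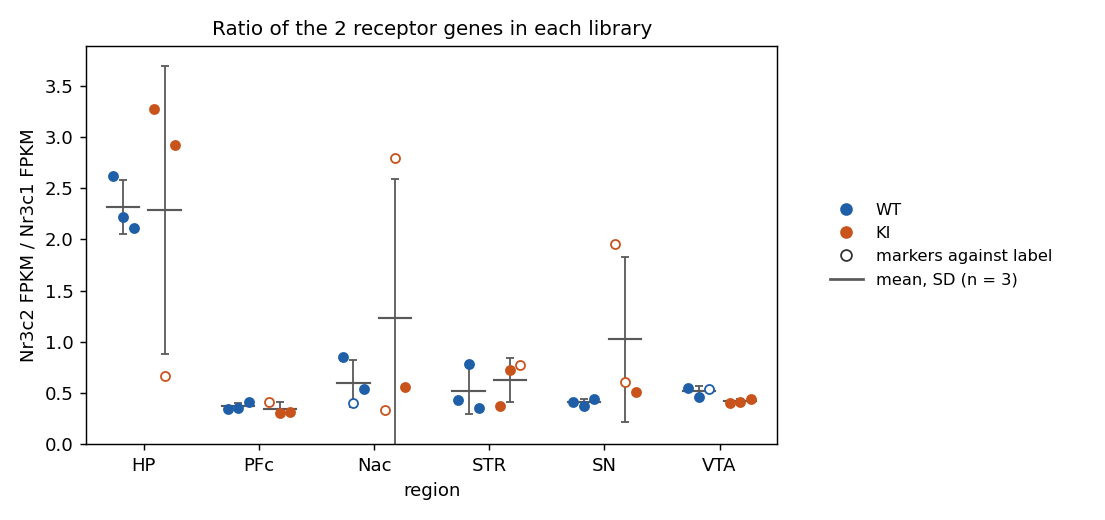
Ratio of Nr3c2 FPKM to Nr3c1 FPKM (y axis, from 0) in each library, by region and genotype. Points are libraries, open where the markers of the library went against its label; lines are means and bars SDs of 3 libraries, cut at 0. WT HP lies at 2.11 to 2.61 and every other WT library at 0.849 or below, while KI HP 2, KI Nac 2 and KI SN 1 lie away from the rest of their regions.

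Hsd11b1 encodes 11β-hydroxysteroid dehydrogenase type 1, which regenerates active corticosterone from its inert form inside cells. It lies on chromosome 1, from 193221640 to 193264045. In VTA it was higher in every KI library than in every WT library: KI VTA 1, 2 and 3 had 78.5, 46.5 and 60.6 CPM, and WT VTA 1, 2 and 3 had 24.9, 32.6 and 7.47 CPM. The log2 fold change was 1.51 (SE 0.498, edgeR adjusted p = 0.371). The lowest WT value was that of WT VTA 3, the library with striatal markers. Without it the log2 fold change was 1.11 (SE 0.214) and passed the test (adjusted p = 0.0337), as did 5.72 percent of 14649 genes. The call rests on 2 WT libraries.

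Other regions gave Hsd11b1 the same direction in part. DESeq2 fits without the libraries whose markers went against their label were chosen after seeing the data. They were run in every region, and their values are given for Hsd11b1 in HP and PFc only. In HP the KI libraries had 62.8, 5.91 and 74.2 CPM and the WT libraries 49.7, 37.8 and 28.9 CPM, a log2 fold change of 0.29 (SE 0.759, adjusted p = 0.871). KI HP 2, at 5.91 CPM, carried striatal markers, and without it the log2 fold change was 0.83 (SE 0.190, edgeR adjusted p = 0.0694; DESeq2 adjusted p = 0.00281); edgeR called 0.42 percent of genes in that fit and DESeq2 6.6 percent. In PFc the KI libraries had 17.3, 32.3 and 30.5 CPM and the WT libraries 24.9, 21.9 and 16.7 CPM; without KI PFc 1 the log2 fold change was 0.58 (edgeR adjusted p = 0.0720; DESeq2 adjusted p = 0.0278, beside 11.4 percent of genes called), and with it 0.35 (adjusted p = 0.482). SN went the other way, with KI at 29.3, 7.38 and 31.7 CPM below WT at 32.7, 47.3 and 35.6 CPM (−0.76, SE 0.482, adjusted p = 0.454; −0.28 without KI SN 1 and 2). In STR the KI libraries had 17.9, 34.0 and 38.8 CPM and the WT libraries 17.6, 28.3 and 22.6 CPM, with overlap (0.42, SE 0.295, adjusted p = 0.628; 0.19 without KI STR 3). In Nac the value turned from 0.92 to −1.10 when WT Nac 2, KI Nac 1 and KI Nac 2 were left out. Summed over the 6 regions for each replicate number, Hsd11b1 had a log2 fold change of 0.46 (SE 0.188), which did not pass (adjusted p = 0.234).

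Marker sums of other cell types also differed between KI and WT in HP and PFc, not always as Hsd11b1 did. In HP the 13 oligodendrocyte markers summed to 4177 to 5204 CPM in WT and 10197 to 13322 CPM in KI, and the 11 astrocyte markers to 4896 to 5409 and 6593 to 8264 CPM. The 10 microglia markers summed to 365 to 488 CPM in WT HP and 644 to 665 CPM in KI HP, and the 6 pericyte markers to 178 to 206 and 219.98 to 258 CPM. The WT and KI sums of these 4 lists did not overlap in HP, and those of the endothelial and meningeal fibroblast lists did. KI HP 2, with Hsd11b1 at 5.91 CPM, was among the KI libraries above WT on these 4 lists. Without KI HP 2 edgeR called 3 oligodendrocyte, 1 microglia and 0 astrocyte markers higher there, beside the 0.42 percent of all genes. In PFc the microglia markers summed to 492 to 709 CPM in WT and 865 to 1037 CPM in KI, and the pericyte markers to 195 to 248 and 270.4 to 323 CPM. KI PFc 1 was above WT on both lists, with Hsd11b1 at 17.3 CPM, within the WT range. The astrocyte markers reached at most 6601 CPM in WT PFc and had 8753 and 9853 CPM in KI PFc 2 and 3, and 5109.9 CPM in KI PFc 1. Without KI PFc 1 edgeR called 7 of the 11 astrocyte and 4 of the 10 microglia markers higher, beside the 3.85 percent of all genes. The part of these markers in the Hsd11b1 values was not tested.

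In VTA the summed markers of pericytes, endothelial cells, meningeal fibroblasts and oligodendrocytes were higher in every KI library than in every WT library, as Hsd11b1 was. The 6 pericyte markers summed to 213 to 243 CPM in WT and 349 to 370 CPM in KI, and the 10 endothelial markers to 379 to 465 and 673 to 682 CPM. The 6 meningeal fibroblast markers summed to 72.3 to 139.8 CPM in WT and 209 to 241 CPM in KI, and the 13 oligodendrocyte markers to 14027 to 19352 and 25832 to 37399 CPM. Astrocyte sums overlapped, at 4535 to 6056 CPM in WT and 5886 to 8221 CPM in KI, as did microglia sums, at 425 to 1011 and 661 to 833 CPM. None of these markers was at 0 in any library. Without WT VTA 3, edgeR called 3 of the 6 pericyte, 5 of the 10 endothelial, 3 of the 6 meningeal fibroblast, 6 of the 10 microglia, 5 of the 11 astrocyte and 7 of the 13 oligodendrocyte markers higher, beside the 5.72 percent of all genes. Their part in the Hsd11b1 difference was not tested.

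Between WT regions Hsd11b1 was highest in HP (38.8 ± 10.4 CPM) and SN (38.5 ± 7.74 CPM), and SN did not overlap STR (22.8 ± 5.35 CPM), the next in order. VTA (21.7 ± 12.9 CPM), PFc (21.2 ± 4.15 CPM) and Nac (19.3 ± 9.42 CPM) followed with overlap. The F test did not pass (adjusted p = 0.152), and passed without WT Nac 2 and WT VTA 3 (adjusted p = 0.00438). Without WT VTA 3 the mean of WT VTA was 28.8 CPM, above WT STR.

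**Figure D3:**
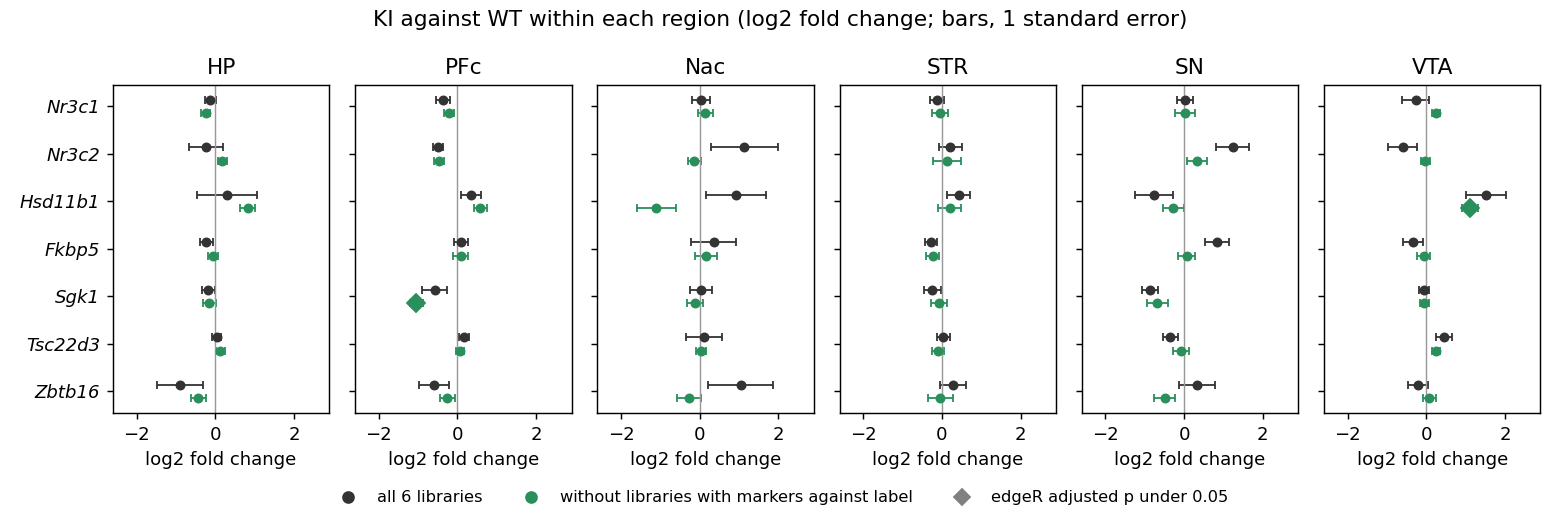
Log2 fold change of KI over WT (x axes) for the 7 genes in each region, from edgeR; bars are 1 standard error. Black shows all 6 libraries and green the fit without libraries whose markers went against their label; diamonds pass an adjusted p of 0.05. The 2 diamonds are Hsd11b1 in VTA at 1.11 and Sgk1 in PFc at −1.04, both in the reduced fits. The reduced PFc fit leaves out KI PFc 1, which kept its cortical markers.

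Sgk1 encodes a serum- and glucocorticoid-induced kinase that controls ion channels and transporters, and it is expressed in oligodendrocytes as well as neurons. It lies on chromosome 10, from 21882184 to 21999903, with several start sites. The 250 bases before 2 of its starts, from RefSeq's table for GRCm38.p6, are shown because they precede the most abundant Sgk1 transcript and the Sgk1 transcript that was called between WT regions, and because only 1 of them holds a match to a known element. Whether the transcripts differ from each other in their spread over regions was not tested. Capitals mark a match to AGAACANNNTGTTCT, a full palindromic glucocorticoid response element, which reads the same on both strands. The start of NM_001161850 is preceded by chr10:21993640-21993889 (+ strand), which holds the match from 21993701 to 21993715. The start of NM_011361 is preceded by chr10:21994416-21994665 (+ strand), which holds none. Neither window overlaps a GENCODE exon of the 7 genes. Both lie in introns of longer Sgk1 transcripts.
NM_001161850: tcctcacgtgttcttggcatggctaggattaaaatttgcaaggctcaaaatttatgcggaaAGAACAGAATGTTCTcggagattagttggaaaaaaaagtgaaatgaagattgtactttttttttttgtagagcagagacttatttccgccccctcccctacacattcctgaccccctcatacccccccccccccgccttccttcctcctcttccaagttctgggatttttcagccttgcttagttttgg
NM_011361: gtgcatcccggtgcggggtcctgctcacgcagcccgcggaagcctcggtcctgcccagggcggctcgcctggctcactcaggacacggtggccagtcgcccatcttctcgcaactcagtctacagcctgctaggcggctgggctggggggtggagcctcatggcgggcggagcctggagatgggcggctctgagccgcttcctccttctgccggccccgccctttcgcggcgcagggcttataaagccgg
The match begins 189 bases before the start of NM_001161850 and 965 bases before that of NM_011361. Of 32851 RefSeq windows of 250 bases, 3 hold this motif (0.00913 percent). Of the 7 genes, 5 were searched, with 12 windows in all: Fkbp5, Hsd11b1, Nr3c2, Sgk1 and Tsc22d3. Among these 12 windows this was the only one with a full match. Windows of the remaining genes of the 7 were not searched. A match is a description of the letters, not a binding site shown by these data.

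NM_011361 made up 85.4% of Sgk1 estimated transcript counts over all libraries, NM_001161845 11.1% and NM_001161850 3.19%. NM_001161850 had 9.99, 11.3 and 8.75 CPM in the WT STR libraries and 0.922 to 6.03 CPM in the other 15 WT libraries, so STR did not overlap the rest. Its share of the gene was 5.89%, 5.20% and 5.74% in WT STR and at most 4.20% in the other WT libraries. STR exceeded the mean of the other regions by 1.90 on the log2 scale (SE 0.345, edgeR adjusted p = 0.0102 over 48572 transcripts). Its F test passed in 7 of the 18 fits that left out 1 WT library (edgeR adjusted p from 0.0265 to 0.131). Of the 36 listed transcripts of the 7 genes, 4 differed between WT regions, against 6.10 percent of all transcripts: this one, NM_001083906 of Nr3c2, and the single Fkbp5 transcript, which is listed at 2 placements with its counts divided equally. NM_011361 also had its highest WT mean in STR, at 144, 191 and 121 CPM, but did not pass (F test adjusted p = 0.0791), and passed without WT Nac 2 and WT VTA 3 (0.0438). In KI, NM_001161850 had 8.41, 5.96 and 6.34 CPM in STR and 0.866 to 6.35 CPM elsewhere. These are estimates from reads that the transcripts largely share.

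**Figure D4:**
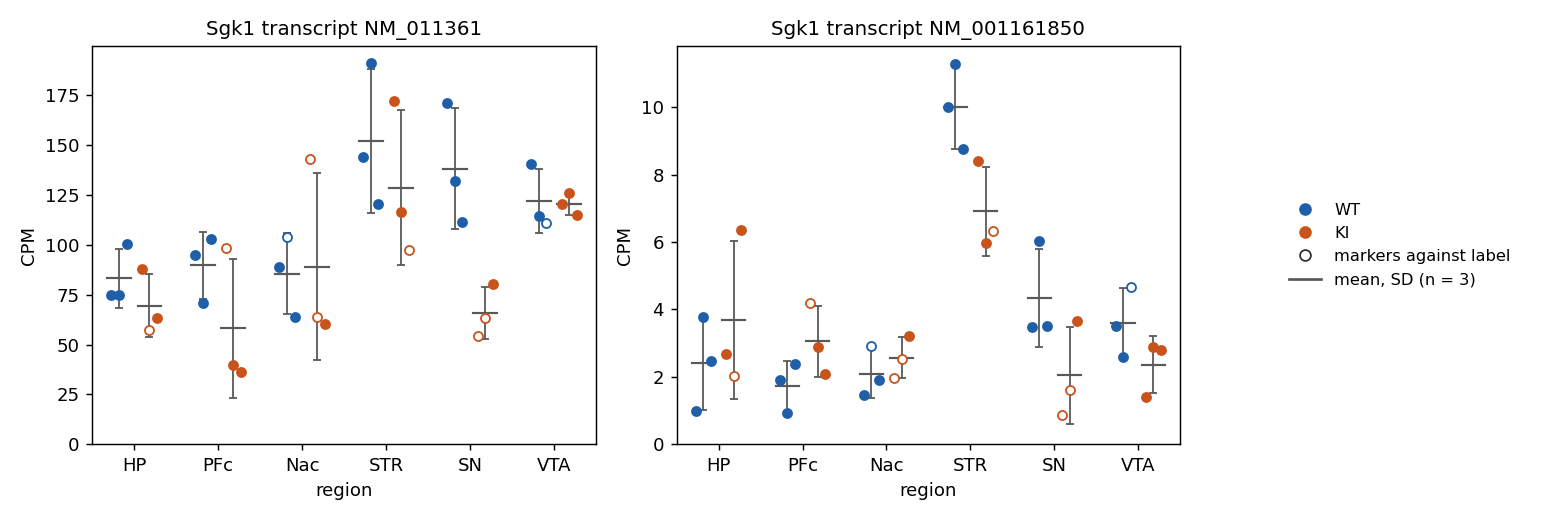
CPM of 2 Sgk1 transcripts (y axes, from 0) in the 36 libraries, by region and genotype; points are libraries, open where the markers of the library went against its label, and lines and bars give means and SDs of 3 libraries, cut at 0. NM_001161850 lies at 8.75 to 11.3 CPM in WT STR and at 6.03 CPM or below in every other WT library.

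At the level of the gene, Sgk1 was highest in STR. WT STR 1, 2 and 3 had 168, 209 and 147 CPM, 0.57 above the mean of the other regions on the log2 scale (SE 0.141, edgeR adjusted p = 0.00984; 12.6 percent of genes were called higher in STR). It passed in 17 of 18 fits without 1 WT library; without WT STR 2 the difference was 0.42 (edgeR adjusted p = 0.105). SN (149 ± 26.9 CPM), VTA (134 ± 14.2), PFc (107 ± 19.4), Nac (106 ± 17.7) and HP (103 ± 17.7; n = 3 each) followed, each overlapping the next. The F test gave an adjusted p of 0.0133. Without WT Nac 2 the mean of WT Nac was 98.2 CPM, below WT HP. All WT STR libraries also carried choroid plexus markers, at a summed 11163 to 16556 CPM, against at most 1428 CPM in the other WT libraries. Thalamus markers summed to 457 to 1256 CPM in WT STR and to at most 593 CPM in the other WT libraries. The part of such tissue in the STR levels of Sgk1 and NM_001161850 was not tested.

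Sgk1 was lower in KI in SN and in part of PFc. In SN the WT libraries had 178, 142 and 126 CPM and the KI libraries 65.9, 85.4 and 92.7 CPM, without overlap. The log2 fold change was −0.87 (SE 0.202, unadjusted p = 0.00295, edgeR adjusted p = 0.132), DESeq2 gave an adjusted p of 0.00774, and the authors' deposited table gives a q-value of 0.00898. KI SN 3, the library that kept its own region's markers, was also below all WT libraries; with it alone as KI the log2 fold change was −0.68 (adjusted p = 0.458). Oligodendrocyte markers summed to 19478, 17522 and 15592 CPM in WT SN and to 2763, 15249 and 25439 CPM in KI SN. Within KI SN both Sgk1 and the marker sum were highest in KI SN 3. Compared with WT SN, that library had a marker sum above all WT libraries (25439 CPM) and Sgk1 below all of them (92.7 CPM). In the remaining KI SN libraries the marker sum and Sgk1 were both below all WT SN libraries. The part of these markers in the Sgk1 difference was not tested.

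In PFc the WT libraries had 116, 85.1 and 121 CPM of Sgk1. KI PFc 1, the library with striatal markers, had 109 CPM, and KI PFc 2 and 3 had 54.3 and 48.7 CPM. The log2 fold change was −0.58 over all 6 libraries (SE 0.314, adjusted p = 0.349) and −1.04 without KI PFc 1 (SE 0.157, adjusted p = 0.0288), a fit in which 3.85 percent of 14299 genes passed. The call rests on KI PFc 2 and 3, the most alike pair within any group (chi-square per gene 6.51). Oligodendrocyte markers were also lower than WT in KI PFc 2 and 3, and higher in KI PFc 1, whose Sgk1 lay within the WT range. They summed to 7037, 5111 and 5984 CPM in WT PFc, to 4874 and 3542 CPM in KI PFc 2 and 3, and to 18138 CPM in KI PFc 1; without that library 0 of the 13 had a higher mean in KI and 3 were called lower. Their part in the Sgk1 difference was not tested. HP, Nac, STR and VTA gave log2 fold changes of −0.18, 0.04, −0.25 and −0.06 for Sgk1, with overlapping groups.

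Fkbp5 encodes an immunophilin that binds the receptor complex and lowers its affinity for hormone, in a feedback loop. It lies on chromosome 17, from 28398753 to 28486149. In WT its order over regions began as that of Nr3c2 did: HP had 82.8, 75.3 and 95.2 CPM and all other WT libraries 19.9 to 64.6 CPM. HP exceeded the mean of the other regions by 1.27 on the log2 scale (SE 0.194, edgeR adjusted p for the F test 0.00144). In KI, Fkbp5 again stood out in KI Nac 2 (94.2 CPM) and KI SN 1 (73.0 CPM), and KI HP 2 was the lowest of KI HP (56.0 CPM). Its Spearman correlation with Nr3c2 over the 36 libraries was 0.89, a description of libraries that share depth and tissue. Between genotypes no region had groups that did not overlap. The largest log2 fold change was 0.85 in SN (SE 0.304, adjusted p = 0.218), and 0.06 without KI SN 1 and 2. Without KI SN 3 instead, the library that kept its markers, it was 1.12 and passed (edgeR adjusted p = 0.0493), as did 383 genes in all in that fit.

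Tsc22d3 encodes GILZ, a leucine zipper protein that carries part of the anti-inflammatory action of glucocorticoids. It lies on chromosome X, from 140539528 to 140600522. It was lowest in WT HP, where Nr3c2 and Fkbp5 were highest. WT HP had the lowest level, 72.2 ± 5.58 CPM, 0.58 below the mean of the other regions on the log2 scale (SE 0.191, edgeR adjusted p = 0.0282; 16.7 percent of genes were called lower in HP), and WT SN the highest, 130 ± 13.96 CPM. The place of SN depended on WT VTA 3, without which WT VTA had a mean of 138 CPM. The F test over all 18 WT libraries gave an adjusted p of 0.0430. Over the 18 fits that left out 1 WT library, the HP difference passed in 15, failing without each WT HP library in turn (edgeR adjusted p up to 0.112), and the F test in 6 (edgeR adjusted p from 0.00264 to 0.111). Over the 36 libraries its Spearman correlation was −0.82 with Nr3c2 and −0.81 with Fkbp5. In VTA the KI libraries, at 173, 156 and 161 CPM, lay above the WT libraries at 140, 137 and 81.1 CPM (log2 fold change 0.45, SE 0.212, adjusted p = 0.410). Without WT VTA 3 the log2 fold change was 0.24 (adjusted p = 0.136).

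Zbtb16 encodes PLZF, a zinc finger repressor, and is the least abundant of the 7 genes. It lies on chromosome 9, from 48651797 to 48836225. In WT its highest levels were in HP, at 49.4, 73.7 and 83.2 CPM, and PFc, at 72.9, 46.2 and 51.8 CPM; the other 12 WT libraries had 7.56 to 19.1 CPM. HP lay 1.96 and PFc 1.65 above the mean of the other regions on the log2 scale (SE 0.221 and 0.225; 16.1 percent of genes were called higher in PFc), and STR and VTA lay 1.12 and 1.06 below it (edgeR adjusted p = 0.0100 and 0.0335; 8.16 and 3.16 percent of genes were called lower there). The F test gave an adjusted p of 1.87e-05. The HP and PFc differences passed in all 18 fits without 1 WT library. The STR difference passed in 17 (edgeR adjusted p = 0.0681 without WT STR 1). The VTA difference passed in 14, and not without WT HP 2, WT HP 3, WT VTA 1 or WT VTA 2 (edgeR adjusted p up to 0.194). KI HP 2 (9.19 CPM) and KI PFc 1 (16.7 CPM), both with striatal markers, were the low libraries of their groups, and KI Nac 2 (63.7 CPM) and KI SN 1 (38.1 CPM) the high ones. Summed over regions, all 3 KI sums, at 21.9, 25.4 and 23.9 CPM, lay below all 3 WT sums, at 26.7, 29.1 and 32.4 CPM (log2 fold change −0.31, SE 0.0925, unadjusted p = 0.0118, adjusted p = 0.137). With region as a term and without the 8 libraries below their midpoint the value was also −0.31 (edgeR adjusted p = 0.150). That fit kept KI PFc 1, a low library of its group for Zbtb16.

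Groups of KI and WT did not overlap for 2 of the 7 genes in PFc, beside 28.5 percent of all genes there. The count was 3 of 7 in SN, beside 23.9 percent, and 2 of 7 in VTA, beside 23.4 percent. It was 0 of 7 in HP (23.9 percent), STR (17.7 percent) and Nac (4.19 percent). In the sums 1 of 7 did not overlap, against 26.4 percent of genes. edgeR called 0 of the 7 there and 0 percent of genes. With region as a term and without the libraries whose markers went against their label it called 0 of the 7 and 17.2 percent of genes. That fit, and the one between KI regions below, kept KI PFc 1. With 7 genes, these counts are not a result about the 7. Genotype by region, an F test over all 36 libraries, called 0 of the 7 (smallest adjusted p = 0.571, for Nr3c2) and 0 percent of genes. Between KI regions 1 of 7 differed, Nr3c2 (adjusted p = 0.0479), against 12.6 percent of genes; it passed in 6 of 18 fits without 1 KI library (edgeR adjusted p from 0.00579 to 0.116). Of the single KI regions, VTA gave calls. Tsc22d3 lay 0.73 above the mean of the other KI regions there (SE 0.204, edgeR adjusted p = 0.0276; 8.45 percent of genes were called higher), with KI Nac 1 at 178 CPM the library outside VTA above the 156 to 173 CPM of KI VTA. KI Nac 1 was below the midpoint on the markers of its labelled region. Midbrain dopamine neuron markers reached a summed 3598 CPM within KI Nac, against 1956 to 2150 CPM in KI VTA. The Tsc22d3 difference passed in 15 of 18 fits without 1 KI library, and not without each KI VTA library in turn (edgeR adjusted p up to 0.130). Fkbp5 lay 1.04 below that mean in VTA (SE 0.339, edgeR adjusted p = 0.0446; 10.8 percent of genes were called lower), at 22.4 to 24.7 CPM, and passed in 5 of 18 such fits (edgeR adjusted p from 0.00194 to 0.164). Without the libraries whose markers went against their label 5 of 7 differed between KI regions, against 50.5 percent; Nr3c1 (0.0572) and Sgk1 (0.0724) did not.

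Genes that act with the receptors were followed in 4 lists. Counts of genes higher or lower by mean, and list medians, are over all libraries, also those whose markers went against their label. For the other glucocorticoid targets they are given for HP only and do not describe the remaining regions. Of 25 other known glucocorticoid targets, 24 were tested within HP, and 17 of these lay higher in KI by mean (median difference 0.18 on the log2 scale, against 0.0016 for all genes). edgeR called 0 of them in HP over all libraries; DESeq2 called 2 higher, beside 2.2 percent of all genes, and edgeR without KI HP 2 also 2, beside 0.42 percent. The metallothionein genes Mt1 and Mt2, which bind zinc, led: Mt1 had 104 ± 9.46 CPM in WT and 185 ± 30.7 CPM in KI (0.83, SE 0.149, adjusted p = 0.304) and Mt2 had a log2 fold change of 0.88. Without KI HP 2 they had 0.86 and 1.01 (edgeR adjusted p = 0.0452 and 0.0418). Both genes are known to be expressed in astrocytes, and the astrocyte marker sums given above were higher in all KI HP libraries, and in KI PFc 2 and 3, than in the WT libraries of the same region. KI PFc 1 went the other way, with an astrocyte marker sum of 5109.9 CPM, below the WT PFc libraries, which began at 5600 CPM. The part of astrocyte markers in the Mt1 and Mt2 values was not tested. In PFc the 2 genes had 1.13 and 1.12 (adjusted p = 0.208 each) and Sult1a1, a sulfotransferase, 0.99, all without overlap of the groups; without KI PFc 1 the values were 0.87, 0.83 and 0.995 (edgeR adjusted p = 0.0288, 0.0288 and 0.0851), and edgeR called 3 of 24 targets higher, beside 3.85 percent of all genes. In SN Fam107a, an actin-bundling protein gene induced by stress, had 222 ± 52.5 CPM in WT and 459 ± 34.0 CPM in KI (1.05, SE 0.211, adjusted p = 0.122), and 1.01 without KI SN 1 and 2 (SE 0.288, edgeR adjusted p = 0.379). In the sums over regions Plin4, a lipid droplet protein gene, had the largest difference of the lists' genes without overlap (−1.07, adjusted p = 0.0543), followed by Mt1 (0.63) and Mt2 (0.57).

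Over all libraries under their labels, the 12 chaperone genes of the receptor complex had mostly lower means in KI. In SN and Nac these libraries include KI SN 1 and 2, KI Nac 1 and 2 and WT Nac 2, so genotype and tissue cannot be told apart there. SN had 11 of 12 lower (median −0.27) and STR 10 of 12 (−0.21). HP, PFc, VTA and Nac had 9 of 12 lower each (medians −0.23, −0.21, −0.088 and −0.073), where the medians over all genes lay between −0.0086 and 0.029. edgeR called 0 of them over all libraries and 2 lower in PFc without KI PFc 1, beside 3.85 percent of all genes. DESeq2 called 1 lower in PFc, beside 3.08 percent, and 2 in SN, beside 6.26 percent. Hsp90aa1, which encodes the stress-inducible HSP90, had 1660 ± 129 CPM in WT HP and 1205 ± 200 CPM in KI HP (−0.46, adjusted p = 0.313; −0.38 without KI HP 2, adjusted p = 0.166). The co-chaperones Stip1 and Fkbp4 had −0.70 and −0.69 in SN (adjusted p = 0.135 and 0.132), and −0.67 and −0.54 without KI SN 1 and 2 (edgeR adjusted p = 0.445 and 0.471). Of the 11 coregulators, 11 had lower means in HP (median −0.24) and 10 in PFc (−0.25), and 2 in Nac and 3 in SN; edgeR called 0 in each region and DESeq2 1, higher in SN, beside the 6.26 percent of all genes.

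Of 8 genes that move or metabolise the hormone, 6 were tested. In VTA 5 had higher means in KI (median 0.55), led by the exporter gene Abcb1a of the blood-brain barrier (37.6 ± 12.98 CPM in WT, 71.2 ± 1.05 CPM in KI; 0.91, SE 0.269, adjusted p = 0.371), the steroid-reducing enzyme gene Akr1c14 (0.82) and Abcb1b (0.82). Without WT VTA 3 edgeR called 2 of the 6 higher, Abcb1a (1.08, adjusted p = 0.0429) and Akr1c14 (1.02, adjusted p = 0.0313), beside 5.72 percent of all genes, and over all libraries edgeR and DESeq2 called 0. Abcb1a thus stood beside the endothelial markers given above, and their part was not tested. In STR the largest differences without overlap were those of Abcb1b (0.57), Dusp1, a phosphatase gene (−0.53), and H6pd, which supplies the cofactor of the Hsd11b1 enzyme (−0.40; adjusted p = 0.482, 0.334 and 0.462); without KI STR 3 they had 0.47, −0.42 and −0.46 (edgeR adjusted p = 0.599, 0.401 and 0.502). Between WT regions edgeR called 14 of 25 targets, 4 of 12 chaperones, 10 of 11 coregulators and 2 of 6 ligand genes, beside the 48 percent of all genes. Bcl6, a repressor gene, had 61.1 ± 6.43 CPM in HP and 18.6 to 28.0 CPM as the means of the other regions (adjusted p = 2.65e-05), and Dusp1 45.4 ± 10.4 CPM in PFc (adjusted p = 5.87e-05). The next 6 by adjusted p were Gpd1, Cebpd, Tgfb1i1, Nrip1, Cdkn1a and Ncor1. Between KI regions edgeR called Fam107a and Plin4 among the targets and Tgfb1i1 among the coregulators.

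By Spearman correlation of log2 CPM over 36 libraries, among 12631 genes, the genes most like Nr3c2 were Myo5b (0.92), Ncdn (0.91) and Sipa1l3 (0.91), and those most like Fkbp5 were Ncdn (0.95), Mcu (0.94) and Myo5b (0.94), so these lists shared 2 genes. Nr3c1 was most like Bcor (0.91), the coactivator gene Ncoa2 (0.90) and Foxo3 (0.90). Sgk1 was most like Abca2 (0.86), Pcolce2 (0.86) and Kcnk13 (0.85), and Tsc22d3 most like Sccpdh (0.91), Dusp15 (0.91) and Uap1l1 (0.91). Zbtb16 was most like Prkab2 (0.87), Kcnj6 (0.86) and Srrm4 (0.86). Hsd11b1 was most like Tmem18 (0.85), Lcat (0.84) and Gfap (0.83), the last of which is an astrocyte marker.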

How the data were processed

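RNA from 6 brain regions of WT and KI mice was sequenced with a SMARTER mRNA-seq kit, per the labels' protocols, and the submitters' processing notes name GRCm38.p6. The sources used here name no aligner, counter or strand setting. The authors deposited estimated counts and FPKM per gene and per transcript, and for their own comparisons log2 fold changes and q-values, per the file headers. A further 180 columns of per-sample values were not used.

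Estimated counts (9.88% of gene values not whole) were rounded. Differences were tested with edgeR 4.0.16 (quasi-likelihood, filterByExpr, TMM) in R 4.3.3, with Benjamini-Hochberg adjustment over all genes or transcripts tested and a threshold of 0.05. The procedure was tested on simulated data. DESeq2 1.42.0, its size factors, no filter, a replicate block, 1 fit of 12 groups and leaving out libraries were alternatives. DESeq2 without the libraries whose markers went against their label was chosen after seeing the data. CPM use TMM factors over 36 libraries, and log2 CPM for correlations a prior count of 2. Libraries of a group differed by more than sampling noise (chi-square per gene at least 6.51), and 0 pairs were identical. Replicate numbers were not treated as pairs.

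The 7 genes, the pathway lists and the marker lists were chosen with earlier results of these data known. Named beyond the 7 are, per comparison, up to 8 list genes past the test or, where none passed, up to 3 with the largest change among those with groups that do not overlap and with mean log2 CPM no lower than 1. For each member, the 3 genes with the highest Spearman correlation are named too. Promoter windows are RefSeq's, on GRCm38.p6. GENCODE gave the transcript starts by which windows were named, and the exons of the 7 genes used in the overlap check. Python 3.11.15 and matplotlib 3.10.9 drew the figures.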

Additional observations from a re-analysis of the deposited data

How the results depend on the processing

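Leaving out the libraries whose markers went against their label moved the number of the 7 genes called between KI and WT from 0 to 1 in PFc and in VTA, from 1 to 5 between KI regions, and from 4 to 9 transcripts between WT regions. Over all genes those fits called 3.85 percent in PFc, 5.72 percent in VTA and 50.5 percent between KI regions, and 12.9 percent of transcripts between WT regions. DESeq2 called 2 of the 7 genes in SN (6.26 percent of all genes), 4 between KI regions (25.5 percent), 3 transcripts between KI and WT (0.622 to 2.79 percent of all transcripts by region) and 9 transcripts between WT regions (19.2 percent). Leaving out 1 library at a time gave 0 to 1 gene in PFc (1 without KI PFc 1), 0 to 1 in SN (1 without KI SN 3), 0 to 1 in VTA (1 without WT VTA 3), 0 to 4 between KI regions and 1 to 7 transcripts between WT regions. The cause was not tested. In PFc the library left out was KI PFc 1, which kept its cortical markers. The rule that chose it was applied to KI PFc alone, so no WT PFc library could be left out by it. In the fits between regions KI PFc 1 was kept.

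The correlation of the deviations of same-numbered WT and KI libraries exceeded 0.1 in 2 of 18 pairs, from −0.55 to 0.55. WT and KI libraries come from different mice, so this cannot show whether libraries share an animal. Between the regions of a genotype, same-numbered libraries correlated from −0.62 to 0.71, with means from −0.072 to 0.115 by number. Libraries with markers against their label enter these values, so whether a number stands for an animal stays unknown. With the replicate block the count between KI regions was 0, and the log2 fold change of Hsd11b1 in HP was −0.19; all genes called numbered 9 in SN and 1 in VTA.

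Without the libraries whose markers went against their label, these log2 fold changes turned sign: Nr3c2 in HP 0.18; in Nac Sgk1 −0.12, Zbtb16 −0.27, Hsd11b1 −1.10 and Nr3c2 −0.13; in STR Tsc22d3 −0.098 and Zbtb16 −0.040; Zbtb16 in SN −0.50; in VTA Zbtb16 0.078 and Nr3c1 0.24. With region as a term and without these libraries, but with KI PFc 1 kept, Fkbp5 had −0.024 and Nr3c2 −0.033.

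Leaving out 1 library at a time, log2 fold changes that turned sign ran as follows. In HP the range was Tsc22d3 −0.029 to 0.13, Hsd11b1 −0.17 to 0.83 and Nr3c2 −0.49 to 0.18. In PFc the range was Fkbp5 −0.010 to 0.28. In Nac the range was Tsc22d3 −0.48 to 0.47, Sgk1 −0.26 to 0.17, Zbtb16 −0.53 to 1.47, Fkbp5 −0.18 to 0.77, Nr3c1 −0.092 to 0.19 and Nr3c2 −0.37 to 1.62. In STR the range was Tsc22d3 −0.098 to 0.14, Zbtb16 −0.040 to 0.51, Nr3c1 −0.24 to 0.10 and Nr3c2 −0.013 to 0.48. In SN the range was Zbtb16 −0.46 to 0.61 and Nr3c1 −0.11 to 0.16. In VTA the range was Sgk1 −0.14 to 0.018, Zbtb16 −0.42 to 0.078 and Nr3c1 −0.49 to 0.24. In the sums over regions the range was Tsc22d3 −0.020 to 0.18 and Fkbp5 −0.047 to 0.11.

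The lowest count of any of the 7 genes in any library was 97.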
